A study of Equus caballus with 15 samples.

Results

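The response of equine macrophages to IL-1ß was read by comparing the 3 libraries of macrophages that received IL-1ß alone with the 3 libraries of untreated macrophages, which are 6 of the 15 RNA sequencing libraries of the study. Of the 16932 genes listed, the 11628 whose mean over the 15 libraries reached 1 CPM, a read count scaled to the same total in every library, were compared. The macrophages were grown from blood mononuclear cells of 2 geldings of one breed over 5 days with 30 ng/ml of human M-CSF, in Dulbecco's medium with 10% fetal bovine serum and added non-essential amino acids, and both groups share this differentiation. Polyadenylated RNA was enriched with oligo(dT) beads before sequencing. IL-1ß was given at 10 ng/ml for 24 h, and the untreated macrophages received no cytokine. The other 9 libraries belong to macrophages that received the same IL-1ß together with an orthobiologic therapy (OT) at 25% of the medium, namely conditioned medium of mesenchymal stromal cells (MSC-CM), platelet rich plasma (PRP) lysate or autologous conditioned serum (ACS). Those libraries entered the analysis mainly for the estimate of the spread. The labels do not tie a library to a horse, and the study describes the IL-1ß and untreated libraries as technical replicates. The p-values therefore do not measure the spread between macrophage donor horses. They rest on a spread pooled within all 5 groups, which in the OT groups includes that between the donors of the therapy. The sources also differ on whether the cells were kept for a further 24 h after washing before RNA was collected.

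IL-1ß is a cytokine made mainly by monocytes and macrophages. It binds IL1R1, which pairs with IL1RAP and signals through MYD88 and IRAK kinases to the transcription factor NF-kB and to stress-activated kinases, while IL1R2 is a decoy receptor and IL1RN a competing ligand that block it. In a joint this cytokine is known for driving cartilage breakdown. A separate program, the integrated stress response, acts through the transcription factor ATF4 when amino acids are short or proteins misfold in the endoplasmic reticulum (ER). ATF4 turns on genes for amino acid synthesis and import, and feedback genes such as TRIB3, CHAC1 and DDIT4.

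Macrophage markers were high in all 6 libraries, and T cell markers were present at a lower level. Summed over the 17 macrophage markers listed, the level was 6769 to 9557 CPM with IL-1ß and 7814 to 9825 CPM in untreated macrophages, and none of these markers was at 0. T cell markers summed to 1667 to 2422 CPM with IL-1ß and 1237 to 1613 CPM without, so the groups did not overlap, and CD4, which monocytes can also express, was the highest of them. Of the 10 fibroblast markers 9 were listed, POSTN was at 0 in all 6 libraries, and the sum stayed at or under 11.8 CPM. Reads counted on genes ranged from 28920909 to 39155295 over the 6 libraries, so that 1 read was worth at most 0.0346 CPM.

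IL-1ß replicate 3 stood apart from the other 5 libraries before any gene was tested. The median absolute log2 difference between libraries, over all genes compared, was 0.601 to 0.776 for pairs that held it and 0.199 to 0.319 for all pairs of the others. In 3733 genes, or 32.1%, it lay at least 2-fold from the mean of IL-1ß replicates 1 and 2, with 519 genes higher and 3214 lower. Replicates 1 and 2 differed that much from each other in 2.55% of the genes. It was also the shallowest of the 6 libraries, with 12647 genes detected where the others had 13693 to 14784 at equal depth, and its 100 highest genes took 28.6% of its reads.

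The deviation of that library followed the length of the gene on the chromosome. Other libraries showed such a trend too. The correlation of a library's deviation with the log of this length was -0.40 in IL-1ß replicate 3. It was -0.36 in PRP lysate replicate 1, -0.32 in MSC-CM replicate 1 and -0.23 to 0.28 in the other libraries of the comparison. In the 2907 genes with the shortest span (median 3.42 kb) the median deviation of IL-1ß replicate 3 from replicates 1 and 2 was 0.27 on the log2 scale. In the 2907 with the longest span (median 114 kb) it was -0.99. The transferrin receptor gene TFRC, at 882 and 459 CPM in replicates 1 and 2, was at 33.2 CPM in replicate 3, and the lipid exporter gene ABCA1 was at 315 and 134 CPM against 10.8 CPM. The kinase gene PDPK1 was at 29.2 and 13.1 CPM in replicates 1 and 2 and at 0 in replicate 3. The splicing regulator gene MBNL1 was at 316 and 152 CPM against 11.0 CPM. In the opposite direction TFPT was at 11.8 and 11.4 CPM in replicates 1 and 2 and at 45.6 CPM in replicate 3, and NPDC1 at 7.98 and 19.4 CPM against 48.4 CPM. The unnamed genes ENSECAG00000001923, ENSECAG00000009625 and ENSECAG00000009575 reached 70.7 CPM, 156 CPM and 49.7 CPM in replicate 3. For this reason the calls and most list medians are given from all 15 libraries and again without IL-1ß replicate 3. Many single genes carry a fold change from all libraries alone. What set IL-1ß replicate 3 apart was not tested.

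With all 15 libraries 34 genes, 0.292% of those compared, passed the limma test at 0.05 after Benjamini-Hochberg adjustment and a 2-fold change, 16 higher (0.138%) and 18 lower (0.155%) with IL-1ß. Without IL-1ß replicate 3 the count was 35, or 0.301%, with 21 higher (0.181%) and 14 lower (0.12%). Both fits called 22 genes, 13 higher and 9 lower, which is 64.7% of the first list and 62.9% of the second. Over all genes compared the log2 fold changes had a median of -0.07 with the 15 libraries and 0.06 without replicate 3, and scaling by RLE size factors moved these to -0.02 and 0.01. A call in 1 fit does not show that the fold change differs between the fits, which share 14 libraries, and that difference was not tested. PRP lysate replicate 1 and MSC-CM replicate 1 carried the next lowest first principal component scores, and a fit of 12 libraries without all 3 of these called 109 genes (0.937%), 69 higher (0.593%) and 40 lower (0.344%). It held all 35 genes called without replicate 3 and 29 of the 34 called with all libraries. The other libraries it leaves out belong to OT groups, so its fold changes equal those without replicate 3. Only the estimate of the spread changed, with a median SE of 0.174 against 0.227. Its calls are therefore not separate evidence from that fit. The 6 libraries of the comparison fitted alone called 0 genes in limma, where 821 had an unadjusted p under 0.05, and DESeq2 and edgeR, fitted with all libraries, called 167 (1.12%) and 27 (0.197%). Leaving out replicate 3 thus left the count almost as it was, whereas leaving out any other of the 6 libraries lowered it, to 10 when IL-1ß replicate 1 was dropped, 6 when replicate 2 was dropped, and 7, 6 and 5 without untreated replicates 1, 2 and 3.

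**Figure D1:**
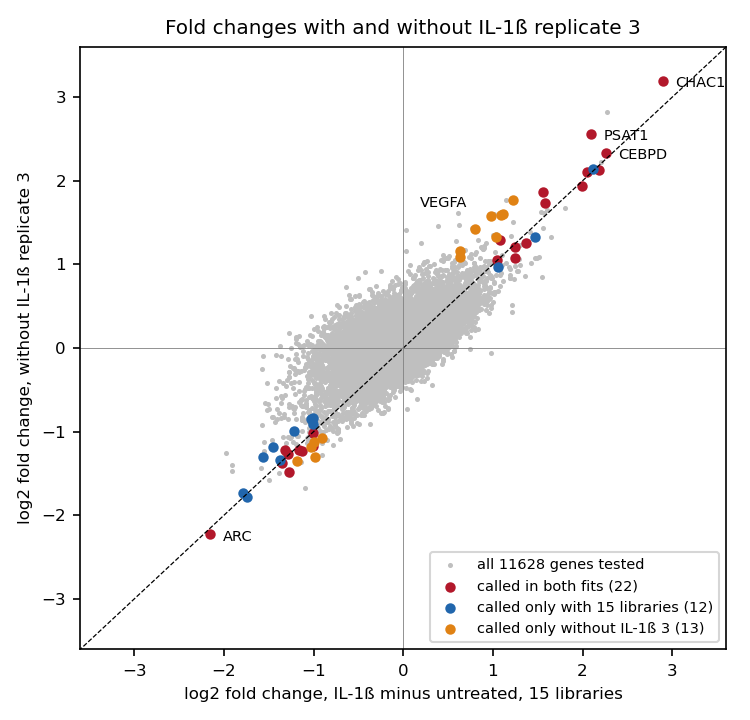
Log2 fold change of IL-1ß against untreated macrophages for the 11628 genes compared, with all 15 libraries (horizontal) and without IL-1ß replicate 3 (vertical), both from log2(CPM + 1). The 22 genes called in both fits are red. Genes called higher without replicate 3 and not with it (orange), such as VEGFA, lie above the dashed line of equal values. Some red genes do too, such as PSAT1 (2.09 and 2.56).

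Several genes of amino acid supply and the ATF4 response rose with IL-1ß. Limma called 8 of the 52 compared higher with all libraries and 9 without replicate 3, where it called 0.138% and 0.181% of all genes higher. DESeq2 called 12 of them and edgeR 7, all higher, where they called 1.12% and 0.197% of the genes they tested in either direction. With the 6 libraries alone limma called 0. CHAC1, which encodes an enzyme that degrades glutathione, had the largest change of the genes called. CHAC1 (ENSECAG00000009989, chromosome 1, 149132841 to 149134495 on EquCab3.0, the build of all positions given) was at 16.9, 24.3 and 10.4 CPM with IL-1ß replicates 1, 2 and 3 and at 1.23, 1.04 and 1.74 CPM in untreated macrophages. The lowest IL-1ß library lay well above the highest untreated one. Its log2 fold change was 2.90 ± 0.399 (SE; limma, Benjamini-Hochberg adjusted p = 0.0123), and 3.20 ± 0.408 (SE, adjusted p = 0.00455) without replicate 3. TRIB3 encodes a pseudokinase that restrains ATF4 signaling and the kinase AKT. TRIB3 (ENSECAG00000000607, chromosome 22, 22596194 to 22603700) was at 58.1, 74.4 and 73.1 CPM with IL-1ß and 16.2, 14.3 and 19.1 CPM without, a log2 fold change of 1.99 ± 0.187 (SE; limma, Benjamini-Hochberg adjusted p = 0.000337). All IL-1ß libraries, replicate 3 included, lay close together and above the untreated ones. DDIT4, an inhibitor of the growth kinase mTORC1, had the same shape. DDIT4 (ENSECAG00000004107, chromosome 1, 60601672 to 60602689) was at 49.0, 56.2 and 59.0 CPM with IL-1ß and at 11.8, 10.6 and 11.3 CPM in untreated macrophages, with a log2 fold change of 2.19 ± 0.179 (SE; limma, Benjamini-Hochberg adjusted p = 0.00019). EIF4EBP1, which binds the cap-binding protein eIF4E and holds back translation, was at 48.5, 51.7 and 71.3 CPM with IL-1ß and 27.3, 18.1 and 25.0 CPM without (log2 fold change 1.25 ± 0.213, adjusted p = 0.0348, limma, Benjamini-Hochberg). In this gene replicate 3 was the highest library, and the groups did not overlap.

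PSAT1, ASNS and GPT2, enzymes of serine, asparagine and alanine synthesis, rose in both fits. PSAT1 (ENSECAG00000017903, chromosome 23, 12768902 to 12800860), which catalyzes the second step of serine synthesis, was at 53.7, 68.9 and 22.2 CPM with IL-1ß and 10.2, 9.45 and 8.75 CPM in untreated macrophages. Replicate 3 was the lowest of the IL-1ß libraries but still above all untreated ones. The log2 fold change was 2.09 ± 0.349 (SE; limma, Benjamini-Hochberg adjusted p = 0.0344), and 2.56 ± 0.256 (SE, adjusted p = 0.00082) without replicate 3. PHGDH, the enzyme of the first step, was at 11.4, 13.7 and 17.0 CPM with IL-1ß and 5.77, 3.39 and 4.15 CPM without, and passed with all libraries (log2 fold change 1.47 ± 0.255, adjusted p = 0.0352, limma, Benjamini-Hochberg) but not without replicate 3 (adjusted p = 0.0543). PSPH, the last enzyme of the pathway, had a log2 fold change of 0.10 and was not called. The asparagine synthetase gene ASNS (ENSECAG00000012134, chromosome 4, 40865817 to 40884683) was at 70.4, 82.5 and 39.5 CPM with IL-1ß and 19.6, 19.1 and 21.9 CPM without. Its log2 fold change was 1.56 ± 0.277 (SE; limma, Benjamini-Hochberg adjusted p = 0.0408), and 1.87 ± 0.242 (SE, adjusted p = 0.00455) without replicate 3, the library that lay lowest with IL-1ß. GPT2 (ENSECAG00000009485, chromosome 3, 390061 to 421465), a mitochondrial alanine aminotransferase, was at 6.81, 9.01 and 6.92 CPM with IL-1ß and 0.945, 0.897 and 1.35 CPM in untreated macrophages, a log2 fold change of 2.05 ± 0.254 (SE; limma, Benjamini-Hochberg adjusted p = 0.0046). The groups lay far apart, but GPT2 overlaps DNAJA2, and the strand setting of the counting is not given in the sources used here.

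Some importers of amino acids passed in limma without replicate 3 and not with it. SLC7A5, the light chain of the leucine transporter, was at 241, 248 and 85.5 CPM with IL-1ß and 68.3, 82.4 and 93.0 CPM without. Replicates 1 and 2 were far above the untreated libraries and replicate 3 lay among them. The log2 fold change was 1.09 ± 0.333 (adjusted p = 0.2) with all libraries in limma with Benjamini-Hochberg adjustment and 1.59 ± 0.204 (SE, adjusted p = 0.00455) without replicate 3. SLC1A4, a carrier of alanine, serine and cysteine, behaved alike, with 12.5, 10.6 and 2.97 CPM against 2.32, 2.27 and 3.49 CPM and a log2 fold change of 1.22 and 1.77 without replicate 3 (limma, Benjamini-Hochberg adjusted p = 0.219 and 0.0213). DESeq2 passed SLC7A5 and SLC1A4 with replicate 3 included, at log2 fold changes of 1.24 and 1.67 (adjusted p = 0.00275 and 0.00553), and edgeR passed neither. In the 12-library fit the cystine importer SLC7A11, the arginine carrier SLC7A1, SLC43A1 and the stress sensor SESN2 passed too. SLC7A11 had a log2 fold change of 0.63 with all libraries and 1.47 without replicate 3. The glutamine carrier SLC38A2 lay at 185, 87.8 and 4.98 CPM with IL-1ß and 99.3, 183 and 139 CPM without, so the untreated libraries fell inside the range of the IL-1ß ones.

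Of the 52 genes compared on the list of ATF4 and amino acid stress genes, 41 had a higher mean with IL-1ß and 11 a lower one, and the median log2 fold change was 0.38, against -0.07 for all genes. Without replicate 3 the split was 46 to 6 and the median 0.52, against 0.06. No IL-1ß library reached down to an untreated one in 20 of the 52, or 38.5%, where 7.98% of all genes did so. With replicate 3 left out this held for 37 of the 52 (71.2%), against 18.7% of all genes. The rise did not extend to all members. The transcription factor gene ATF4 itself had a log2 fold change of 0.50, the aminoacyl-tRNA synthetase genes on the list had values from -0.35 for NARS1 to 0.79 for CARS1, and none of these was called. The stress genes ATF3, DDIT3 and PPP1R15A of the same response were lower on average, with values of -0.80, -0.22 and -0.57 that did not pass. The mean level of the list relative to untreated macrophages was 0.71 and 0.69 on the log2 scale in IL-1ß replicates 1 and 2 and 0.10 in replicate 3, whose level over all genes was -0.37.

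**Figure D2:**
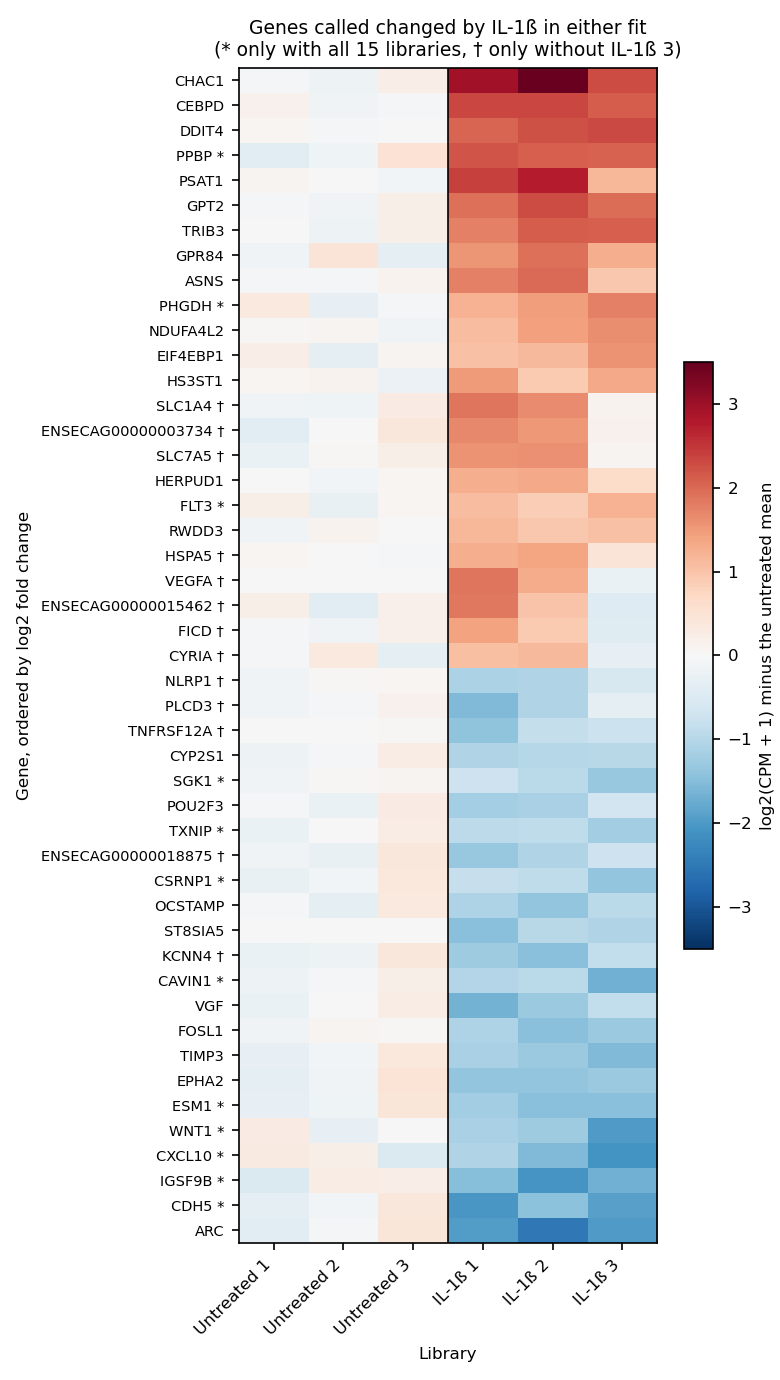
Level of the 47 genes called in either fit in each of the 6 libraries, as log2(CPM + 1) minus the mean of the untreated libraries (red higher, blue lower). The top rows are red in all 3 IL-1ß libraries, whereas SLC1A4, SLC7A5, VEGFA and FICD are pale or blue in IL-1ß replicate 3.

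Most chaperones and folding factors of the ER had a higher mean with IL-1ß and few passed the 2-fold threshold. HERPUD1, which takes part in the removal of misfolded ER proteins, was at 294, 301 and 189 CPM with IL-1ß and 121, 114 and 128 CPM in untreated macrophages. All IL-1ß libraries were above the untreated ones and replicate 3 was the nearest to them. The log2 fold change was 1.08 ± 0.195 (SE; limma, Benjamini-Hochberg adjusted p = 0.0412), and 1.29 ± 0.169 (SE, adjusted p = 0.00455) without replicate 3. HSPA5, the main ER chaperone (BiP), was at 1884, 2039 and 1062 CPM with IL-1ß and 824, 769.9 and 747 CPM without. The groups did not overlap, and the gene missed the threshold with all libraries (log2 fold change 1.03 ± 0.214, adjusted p = 0.0627, limma, Benjamini-Hochberg) and passed it without replicate 3 (1.33 ± 0.155, adjusted p = 0.00272). With all libraries HSPA5 passed in DESeq2 (1.11, adjusted p = 3.2e-05) and in edgeR (adjusted p = 0.0354). FICD, an enzyme that modifies HSPA5, was at 35.7, 25.5 and 9.37 CPM against 12.6, 11.7 and 14.7 CPM and passed in limma without replicate 3, which lay below the untreated libraries, and not with it. The chaperone cofactors SDF2L1 and CRELD2 had log2 fold changes of 1.18 and 1.10 and were not called in limma (Benjamini-Hochberg adjusted p = 0.109 and 0.0931), whereas DESeq2 called both (1.31 and 1.20, adjusted p = 0.0264 and 0.0202). On the ER list limma called 1 gene, DESeq2 4 and edgeR 2, all higher, beside 0.292%, 1.12% and 0.197% of all genes in either direction. XBP1, a transcription factor of the unfolded protein response, was at 228, 266 and 236 CPM against 143, 142 and 152 CPM, and its log2 fold change of 0.74 ± 0.121 (adjusted p = 0.0341) passed the test but not the 2-fold threshold. Of the 45 genes compared on the ER list 34 were higher (median 0.29), against 43.1% of all genes, and 44 without replicate 3 (median 0.34), against 59.0%. All IL-1ß libraries were above the untreated ones in 15 of the 45 (33.3%, against 7.98% of all genes), and replicates 1 and 2 in 28 (62.2%, against 18.7%). The lowest members were the prolyl isomerase FKBP14 at -0.74 and the stress sensor ERN1 at -0.37. The mean level of the ER list was 0.41 and 0.42 in IL-1ß replicates 1 and 2 and -0.02 in replicate 3.

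CEBPD had the largest change of the transcription factor genes called. It encodes C/EBP delta, which is known to rise early in inflamed cells. CEBPD (ENSECAG00000039817, chromosome 9, 36503384 to 36504206) was at 49.7, 50.0 and 42.6 CPM with IL-1ß and at 10.3, 8.33 and 8.78 CPM in untreated macrophages. The 3 IL-1ß libraries were close to each other, and the log2 fold change was 2.26 ± 0.198 (SE; limma, Benjamini-Hochberg adjusted p = 0.000228) and 2.33 ± 0.214 (SE, adjusted p = 0.000467) without replicate 3. CEBPD overlaps SPIDR. Of the rest of the family, CEBPB, CEBPA, CEBPG and CEBPZ lay between -0.45 (CEBPA) and 0.10 (CEBPG) on the log2 scale without a call. CEBPD, DDIT4, TRIB3, GPT2 and ARC were the 5 genes whose call survived whichever of the 6 libraries was dropped.

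The remaining genes higher in both fits had low levels. GPR84, a receptor for medium-chain fatty acids that marks inflamed macrophages, was at 4.86, 6.64 and 3.87 CPM with IL-1ß and 0.843, 1.74 and 0.601 CPM without, a log2 fold change of 1.59 ± 0.309 (SE; limma, Benjamini-Hochberg adjusted p = 0.0495). NDUFA4L2, a mitochondrial protein known from hypoxic cells, was at 5.75, 7.66 and 8.89 CPM against 2.30, 2.44 and 1.92 CPM (log2 fold change 1.37 ± 0.204, adjusted p = 0.0202, limma, Benjamini-Hochberg). HS3ST1, a heparan sulfate sulfotransferase, was at 4.53, 2.74 and 3.94 CPM against 1.07, 1.15 and 0.721 CPM, and RWDD3, which promotes SUMO conjugation, at 4.197, 3.503 and 3.77 CPM against 1.15, 1.57 and 1.32 CPM. In all 4 genes the groups did not overlap. VEGFA, the endothelial growth factor, was at 30.9, 20.1 and 6.29 CPM with IL-1ß and 7.66, 7.62 and 7.64 CPM without. The untreated libraries were nearly equal, replicates 1 and 2 were above them and replicate 3 below, and limma called it without replicate 3 and not with it (log2 fold change 1.58 ± 0.250, adjusted p = 0.0192, limma, Benjamini-Hochberg), and with all libraries the value was 0.97 ± 0.407 (adjusted p = 0.334). DESeq2 called VEGFA with all libraries (1.30, adjusted p = 0.0314), and ENSECAG00000003734 as well. CYRIA and the unnamed genes ENSECAG00000003734 and ENSECAG00000015462 were also called in limma without replicate 3 and not with it, at log2 fold changes of 1.09, 1.599 and 1.43.

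PPBP and FLT3 passed in limma with all libraries and not without replicate 3, and each is also a marker of another cell type. PPBP, a chemokine stored in platelets, was at 12.1, 11.2 and 11.1 CPM with IL-1ß and 1.23, 1.598 and 3.10 CPM in untreated macrophages, with a log2 fold change of 2.12 ± 0.403 (SE; limma, Benjamini-Hochberg adjusted p = 0.0471) and an adjusted p of 0.0653 without replicate 3. The 12-library fit called PPBP and not FLT3. The groups lay apart. The 7 platelet markers listed summed to 13.4 to 17.0 CPM with IL-1ß and 5.21 to 8.69 CPM without, and PPBP was the highest of them. Of the 3 platelet markers compared, PPBP was higher with IL-1ß and the other 2 were lower. Their median log2 fold change was -0.35, and -0.05 without replicate 3. FLT3, a receptor of dendritic cells and their progenitors, was at 4.59, 3.76 and 5.15 CPM against 2.04, 1.18 and 1.74 CPM (log2 fold change 1.06 ± 0.204, adjusted p = 0.0494, limma, Benjamini-Hochberg), and the 10 dendritic cell markers, of which CLEC9A was at 0 in all 6 libraries, summed to 476 to 592 CPM with IL-1ß and 445 to 551 CPM without. In bulk libraries more cells of a type and more RNA per cell cannot be told apart.

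Further genes that the study discusses for this contrast lay apart between the groups without a call in limma with all libraries or without replicate 3. SLAMF9, a receptor of the SLAM family, was at 3.78, 7.06 and 7.05 CPM with IL-1ß and 2.20, 0.953 and 0.180 CPM without, and PEAK3, a pseudokinase gene that overlaps SPPL2B, at 5.003, 6.27 and 11.7 CPM against 1.33, 1.82 and 1.77 CPM. Their log2 fold changes were 1.80 ± 0.372 (adjusted p = 0.0627) and 1.64 ± 0.385 (adjusted p = 0.0953) in limma with Benjamini-Hochberg adjustment. EPS8, an actin regulator, was lower at 106.9, 75.2 and 18.8 CPM against 176, 285 and 197 CPM (-1.98 ± 0.602, adjusted p = 0.194), farthest in replicate 3, and the transcription factor gene CREB5 was at 1.36, 0.848 and 0.0692 CPM against 3.35, 3.78 and 4.63 CPM (-1.55 ± 0.340, adjusted p = 0.0789). STC1, a secreted glycoprotein, was at 0.195, 0.480 and 0.657 CPM against 2.68, 2.27 and 3.34 CPM and just missed the threshold (-1.39 ± 0.275, adjusted p = 0.0546, and 0.0549 without replicate 3). The nuclear receptor gene NR2F1 was at 1.72, 1.19 and 1.90 CPM against 2.61, 8.13 and 10.9 CPM (-1.50 ± 0.420, adjusted p = 0.167). The 12-library fit called all of these but NR2F1. DESeq2 with all libraries called all 6, at log2 fold changes from -2.57 for STC1 (adjusted p = 9.77e-05) to 2.49 for SLAMF9 (adjusted p = 0.0427), and edgeR called none of the 6.

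The usual readouts of IL-1ß signaling were not among the genes called. IL1B itself was at 32.7, 21.0 and 19.5 CPM with IL-1ß and 8.96, 8.19 and 12.6 CPM without. The groups did not overlap, but the log2 fold change of 1.20 ± 0.667 (adjusted p = 0.458) missed the limma Benjamini-Hochberg threshold with all libraries, and again without replicate 3 (adjusted p = 0.512). The 12-library fit called it (limma, Benjamini-Hochberg adjusted p = 0.0286). Its fold change there was 1.34, as without replicate 3 alone, and the SE was 0.290 in place of 0.747. With PRP lysate, whose spread enters the fits, IL1B was at 6.53, 76.4 and 67.9 CPM. The antagonist IL1RN was at 421, 460.5 and 447 CPM against 402, 285 and 481 CPM, and the groups overlapped. In IL6, CXCL8 and TNF the log2 fold changes were 0.35, 0.20 and -0.73, with limma Benjamini-Hochberg adjusted p-values of 0.742, 0.805 and 0.279. Those of CCL2 and PTGS2, the gene of the inducible cyclooxygenase, were -0.53 and -0.71. NFKBIA and TNFAIP3, which NF-kB turns on and which shut it off, had values of 0.04 and -0.47. NFKBIA was at 292, 278 and 336 CPM with IL-1ß and 284, 258 and 342 CPM without, which left the groups overlapping. The receptor genes IL1R1, IL1R2 and IL1RAP were at -0.46, -0.43 and -0.31 on the log2 scale, also without a call.

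Among the NF-kB target genes single members stood on both sides. CXCL6, a neutrophil chemokine, was at 526, 296 and 358 CPM with IL-1ß and 111, 106.6 and 164 CPM in untreated macrophages, and CSF3, the granulocyte growth factor, at 34.7, 16.1 and 22.7 CPM against 5.41, 3.34 and 4.27 CPM. The groups did not overlap in either gene. Their log2 fold changes of 1.61 ± 0.429 (adjusted p = 0.146) and 2.21 ± 0.539 (adjusted p = 0.104) missed the limma Benjamini-Hochberg threshold with all libraries, and both were called in the 12-library fit and by DESeq2 (adjusted p = 0.00516 and 0.000427). In the opposite direction CXCL10, a chemokine turned on by interferons, was at 67.4, 48.2 and 32.7 CPM with IL-1ß and 175, 165 and 98.8 CPM without. All IL-1ß libraries were lower, and the log2 fold change was -1.56 ± 0.303 (SE; limma, Benjamini-Hochberg adjusted p = 0.0495), with an adjusted p of 0.0885 without replicate 3. CXCL10 overlaps ART3, as does its neighbor CXCL11, which was at 26.7, 29.7 and 24.8 CPM against 100.3, 65.6 and 55.7 CPM (log2 fold change -1.38, called in the 12-library fit alone of the 3, and by DESeq2). Of the 60 genes compared on the NF-kB list 20 had a higher mean and 40 a lower one (median -0.24), where 6621 of all 11628 genes had a lower one. The split of the list was the same without replicate 3 (median -0.17), where 4770 of all genes were lower. The list called 0 genes higher and 1 lower in limma, 4 higher and 15 lower at an unadjusted p of 0.05 (750 and 756 of all genes), and 2 higher and 3 lower by DESeq2, which called 1.12% of the genes it tested, and 0 higher and 1 lower by edgeR (0.197%). The 12-library fit called 4 higher, CSF3, CXCL6, IL1B and SOD2, and 2 lower, CXCL10 and F3. The mean level of the list was 0.07, -0.16 and -0.42 in the IL-1ß libraries and -0.10, -0.11 and 0.21 in the untreated ones, with overlap. The list of IL-1 ligands, receptors and signaling genes had a median of -0.30 over 32 genes, which changed sign to 0.07 without replicate 3. Limma with all libraries or without replicate 3, DESeq2 and edgeR called 0 of these, the 12-library fit called IL1B, and 2 were higher and 3 lower at an unadjusted p of 0.05.

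The genes lower with IL-1ß included 3 immediate early genes, which cells switch on within minutes of growth factor or stress signals. Limma called 3 of the 46 compared lower with all libraries and 2 without replicate 3, where it called 0.155% and 0.12% of all genes lower. DESeq2 called 6 lower and 1 higher, where it called 1.12% of the genes it tested in either direction. ARC, best known from activated neurons, was the gene with the largest fall. ARC (ENSECAG00000001167, chromosome 9, 83596455 to 83597652) was at 12.5, 8.33 and 12.2 CPM with IL-1ß and 39.1, 50.3 and 69.5 CPM in untreated macrophages, with a log2 fold change of -2.15 ± 0.244 (SE; limma, Benjamini-Hochberg adjusted p = 0.00222) and -2.23 ± 0.267 (SE, adjusted p = 0.00301) without replicate 3. The IL-1ß libraries agreed while the untreated ones were spread. FOSL1, a subunit of the transcription factor AP-1, was at 8.73, 6.50 and 7.30 CPM against 17.7, 21.1 and 19.99 CPM, a log2 fold change of -1.28 ± 0.223 (SE; limma, Benjamini-Hochberg adjusted p = 0.0352). CSRNP1, a nuclear protein induced by AXIN1, was at 258, 248 and 173 CPM against 377, 425 and 592 CPM and passed with all libraries and in neither fit without replicate 3 (log2 fold change -1.03 ± 0.194, adjusted p = 0.0467, limma, Benjamini-Hochberg). FOS and SPRY2, a brake on receptor tyrosine kinase signaling, were at -1.38 and -1.59 on the log2 scale and, of the 3 limma fits, passed in that of 12 libraries. DESeq2 called SPRY2 too (-1.64, adjusted p = 0.000156). KLF2 had the opposite sign, with 45.1, 73.1 and 131 CPM against 18.8, 32.5 and 30.9 CPM and a log2 fold change of 1.47 that did not pass in limma but did in DESeq2 (1.74, adjusted p = 0.0194). Of the 46 immediate early genes compared 40 were lower (median -0.48), where 6621 of all 11628 genes were. No overlap was seen in 12 of them (26.1%, against 8.22% of all genes). Without replicate 3, 34 of these genes were lower (median -0.34), where 4770 of all genes were, and 16 lay below without overlap (34.8%, against 11.8%). Their mean level was -0.28, -0.39 and -0.87 with IL-1ß and -0.32, 0.09 and 0.23 in untreated macrophages, so that untreated replicate 1 lay among the IL-1ß libraries.

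The other 7 genes called lower in both fits had varied roles. TIMP3 (ENSECAG00000018314, chromosome 28, 32034450 to 32089053), a matrix-bound inhibitor of metalloproteinases and aggrecanases, was at 31.6, 27.8 and 23.5 CPM with IL-1ß and 57.5, 65.6 and 91.1 CPM in untreated macrophages. The groups were separate, and the log2 fold change was -1.32 ± 0.214 (SE; limma, Benjamini-Hochberg adjusted p = 0.0341) and -1.21 ± 0.228 (SE, adjusted p = 0.0436) without replicate 3. TIMP3 lies inside SYN3, so the counts of both are uncertain. EPHA2, an ephrin receptor kinase, was at 14.95, 15.1 and 15.8 CPM against 31.9, 36.9 and 56.6 CPM, a log2 fold change of -1.35 ± 0.208 (SE; limma, Benjamini-Hochberg adjusted p = 0.0254). OCSTAMP, a membrane protein needed for the fusion of osteoclasts and macrophages, was at 145, 119.6 and 162 CPM against 304, 250.1 and 397 CPM, a log2 fold change of -1.13 ± 0.195 (SE; limma, Benjamini-Hochberg adjusted p = 0.0348). In EPHA2 the IL-1ß libraries were nearly equal, and in both genes no IL-1ß library reached an untreated one. VGF, a secreted neuropeptide precursor, was at 89.3, 114 and 156 CPM against 239, 282 and 337 CPM (log2 fold change -1.27 ± 0.210, adjusted p = 0.0341, limma, Benjamini-Hochberg). POU2F3, a transcription factor known from tuft cells and skin, was at 162, 166 and 230.4 CPM against 355, 315 and 451 CPM (log2 fold change -1.004 ± 0.169, adjusted p = 0.0348, limma, Benjamini-Hochberg), with replicate 3 nearest to the untreated libraries. ST8SIA5, a sialyltransferase, was at 6.87, 9.97 and 9.44 CPM against 20.8, 20.3 and 20.8 CPM and the cytochrome gene CYP2S1 at 170.3, 177 and 181 CPM against 311, 338 and 419.9 CPM. CYP2S1 and POU2F3 lay at the edge of the 2-fold threshold, with log2 fold changes of -1.002 and -1.004, and TNFRSF12A, the receptor of the cytokine TWEAK, lay just outside it with -0.999 and an adjusted p of 0.0467 in limma with Benjamini-Hochberg adjustment.

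The 9 genes called lower with all libraries and not when replicate 3 alone was left out included CDH5, the cadherin of endothelial junctions, at 1.53, 2.83 and 1.76 CPM against 7.36, 8.58 and 12.7 CPM, and the ligand gene WNT1 at 1.36, 1.19 and 0.311 CPM against 5.29, 3.22 and 4.18 CPM. All IL-1ß libraries were below the untreated ones in both genes. Of the 7 endothelial markers compared 6 were lower (median -0.12), CDH5, EGFL7 and TEK without overlap (42.9%, against 8.22% of all genes), and the mean level was -0.24, -0.34 and -0.70 with IL-1ß and -0.16 to 0.14 without. The sum over all 12 markers, 257 to 523 CPM with IL-1ß and 192 to 327 CPM without, was mostly PECAM1, which was higher on average. In CAVIN1, a coat protein of caveolae, replicate 3 was the lowest library at 5.22 CPM where replicates 1 and 2 had 8.81 and 9.32 CPM and the untreated libraries 16.7, 18.6 and 22.1 CPM. SGK1, a kinase induced by glucocorticoids, and TXNIP, which binds thioredoxin and limits glucose uptake, had log2 fold changes of -1.002 and -1.01 with all libraries and -0.84 and -0.91 without replicate 3. SGK1, like CAVIN1, kept an adjusted p under 0.05 without replicate 3 (0.0436 and 0.0252, limma, Benjamini-Hochberg) and missed only the fold threshold. IGSF9B and ESM1 completed the 9 with CXCL10 and CSRNP1. The 12-library fit called 5 of them, CDH5, WNT1, CXCL10, ESM1 and IGSF9B. In the 5 genes called lower without replicate 3 and not with it, among them the potassium channel KCNN4 (16.4, 13.8 and 21.5 CPM against 34.1, 35.4 and 53.0 CPM) and the inflammasome sensor NLRP1 (19.7, 20.5 and 29.2 CPM against 39.6, 45.1 and 45.9 CPM), replicate 3 was the IL-1ß library nearest to the untreated ones, and the groups did not overlap. The others were TNFRSF12A, the phospholipase gene PLCD3 (1.56, 2.54 and 4.81 CPM against 5.85, 6.19 and 7.27 CPM) and ENSECAG00000018875 (264, 321 and 404 CPM against 603, 557 and 865 CPM). DESeq2 with all libraries called KCNN4 and none of the other 4. NLRP1 and TNFRSF12A overlap other genes.

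Most cell cycle genes had a higher mean with IL-1ß, and 1 of them, KIF15, was called in the 12-library fit. Of the 82 mitosis and G2M genes compared 71 had a higher mean, against 43.1% of all genes (median 0.33), and of the 83 genes of DNA replication and E2F targets 61 (median 0.25). Without replicate 3 these were 79 of 82 (median 0.48) and 79 of 83 (median 0.37), against 59.0% of all genes. The groups were apart, with IL-1ß above, in 29 of the 82 (35.4%) and 22 of the 83 (26.5%), where 7.98% of all genes were, and 0 lay below, where 8.22% did. With replicate 3 left out these were 61 (74.4%) and 51 (61.4%), against 18.7% of all genes. Limma called 0 members with all libraries and without replicate 3, and DESeq2 and edgeR called 0 as well. At an unadjusted p of 0.05 in limma 29 and 21 were higher and 0 lower, where 750 and 756 of the 11628 genes were. The mean level of the mitosis genes was 0.49 and 0.42 in IL-1ß replicates 1 and 2 and 0.07 in replicate 3, which lay within the untreated range of -0.09 to 0.08.

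With all libraries the single cell cycle genes stayed under a 2-fold difference on the log2(CPM + 1) scale of limma. TACC3, a protein of the mitotic spindle, was at 179.7, 210.4 and 305 CPM with IL-1ß and 111, 103 and 144 CPM in untreated macrophages, a log2 fold change of 0.93. FOXM1, a transcription factor of G2 genes, was at 0.78 on the log2 scale, and KIF15, a spindle motor, 0.78 with all libraries and 1.02 without replicate 3. The extremes of the mitosis list were DEPDC1 at -0.42 and KNL1 at -0.35, and TROAP at 0.85 with TACC3, and those of the replication list DBF4 at -0.37 and CDC25A at -0.32, and POLD1 at 0.76 and the licensing factor CDT1 at 0.94, which was 1.19 in DESeq2 without a call (adjusted p = 0.137). MCM5 and MCM7, subunits of the replicative helicase, had values of 0.69 and 0.51, and TOP2A, a topoisomerase of dividing cells, 0.24 and 0.70 without replicate 3. The T cell markers, whose sums did not overlap between the groups, had a median log2 fold change of 0.54 over 13 genes, 9 higher and 4 lower, and 0.41 without replicate 3, with all 13 higher. The lowest were CD4 at -0.10 and CD28 at -0.10, and the highest CD3E and ZAP70. Of the 7 B cell markers compared 4, namely CD22, CD79A, MS4A1 and POU2AF1, lay above all untreated libraries (57.1%, against 7.98% of all genes), with a list median of 0.48 and mean levels of 0.20, 0.55 and 0.42 with IL-1ß and -0.05 to 0.09 without. CD3E was at 190.1, 255 and 520.5 CPM with IL-1ß and 156, 140.4 and 219.5 CPM without, and ZAP70 at 185, 229 and 395 CPM against 121, 127 and 186 CPM, highest in replicate 3 in both cases. The part of lymphocytes in the cell cycle values was not tested.

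**Figure D3:**
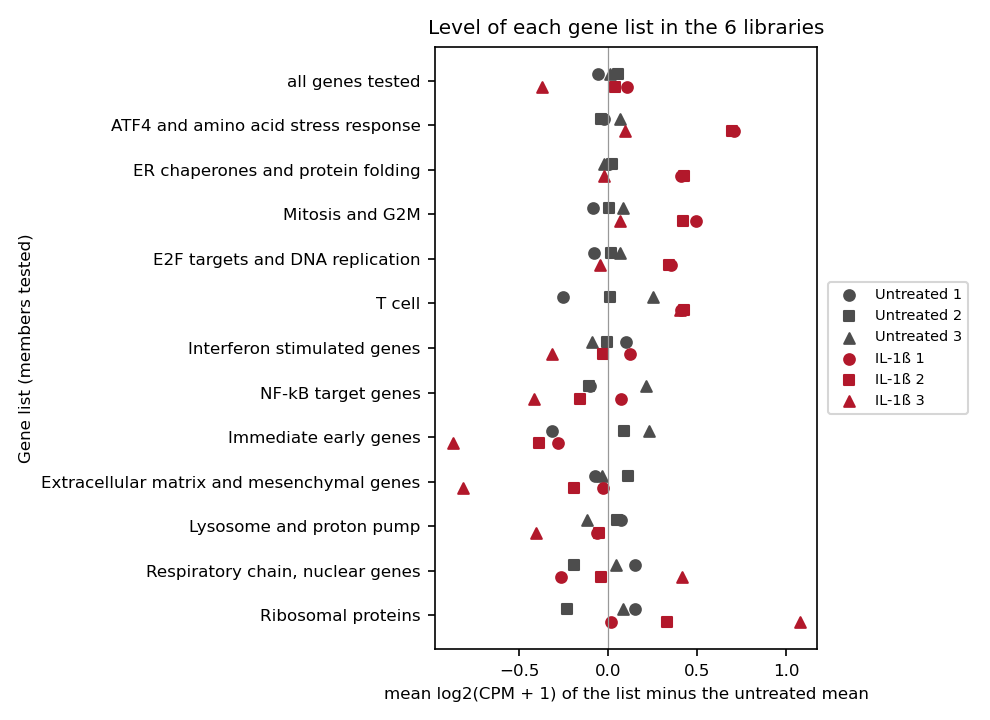
Mean log2(CPM + 1) of the members of 12 gene lists and of all genes compared, minus the mean of the untreated libraries, in each IL-1ß (red) and untreated (gray) library, with the symbol giving the replicate. ATF4, ER and cell cycle genes are raised in IL-1ß replicates 1 and 2, whereas replicate 3 stands alone at 1.07 for ribosomal proteins and -0.82 for matrix genes.

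The values of several lists depended on replicate 3. All 65 ribosomal protein genes compared had a higher mean with IL-1ß, with a median log2 fold change of 0.48, and without replicate 3 the median was 0.15. The mean level of these genes was 0.01 and 0.33 in IL-1ß replicates 1 and 2, 1.07 in replicate 3 and -0.23 to 0.15 in untreated macrophages. RPS20 was at 632, 746 and 1478 CPM with IL-1ß and 601, 428 and 544 CPM without. Nuclear genes of the respiratory chain turned their sign, from a median of 0.04 with 41 of 66 higher to -0.16 with 58 of 66 lower. Limma called 0 members of either list, as did DESeq2 and edgeR. At an unadjusted p of 0.05 in limma 10 ribosomal protein genes were higher and 2 respiratory chain genes lower, where 750 and 756 of the 11628 genes were. Without replicate 3 these were 1 and 2, where 919 and 503 of all genes were. The share of respiratory chain genes was thus below that of all genes.

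Of all 11628 genes compared, 6621 were lower with all libraries and 4770 without replicate 3. Matrix genes had 33 of 37 lower with all libraries (median -0.29) and 23 of 37 without replicate 3 (median -0.10), and TIMP3 was the member called in both fits. Wnt and hedgehog genes had 19 of 24 lower (median -0.56) and 17 of 24 without replicate 3 (median -0.20). Their coreceptor gene LRP6 was at 12.8, 6.50 and 0.519 CPM with IL-1ß and 11.3, 17.7 and 9.17 CPM without, so replicate 3 lay far below the untreated range and replicate 1 within it. The hedgehog effector GLI1 was at 0.695, 0.424 and 0.553 CPM against 1.61, 2.10 and 2.495 CPM, with all IL-1ß libraries lower and replicate 3 between the others (log2 fold change -0.97, not called in limma). DESeq2 called GLI1 (-1.84, adjusted p = 0.00384) and 3 of the 24 Wnt and hedgehog genes in all, each lower, and edgeR called 0. Of all genes it tested DESeq2 called 1.12% in either direction. Limma called 1 of the 24, WNT1, with all libraries and 0 without replicate 3. Lysosome and proton pump genes had 39 of 57 lower in both fits (median -0.16 and -0.06). The pump subunit ATP6V1A was at 582, 411 and 108 CPM with IL-1ß and 499.96, 640.4 and 411 CPM without. Among members of at least 10 CPM the matrix list ran from the integrin gene ITGB3 (-1.55) to TGFBI (0.32) and the collagenase gene MMP1 (0.85), the Wnt list from LRP6 and the receptor gene FZD6 (-1.25) to TCF7 (0.22) and LEF1 (0.72), and the lysosome list from the peptidase gene TPP1 (-0.94) to LGMN (0.38) and ARSA (0.42), all as log2 fold changes without a call.

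**Figure D4:**
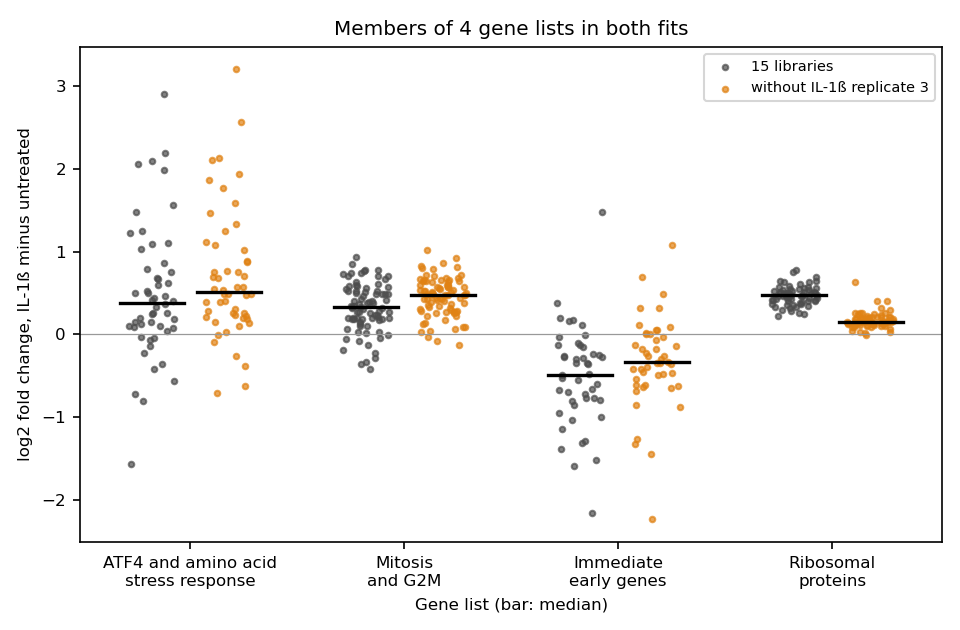
Log2 fold change of each gene compared on 4 lists, with all 15 libraries (gray) and without IL-1ß replicate 3 (orange), and the median as a bar. The ATF4 and mitosis lists keep a median above 0 in both fits, the immediate early genes keep one below 0, and the ribosomal protein genes drop from a median of 0.48 to 0.15.

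The 9 libraries that received IL-1ß with an OT were set beside these values for the genes called with all 15 libraries. They share the untreated libraries as their reference, so their position is a description. Every MSC-CM library lay above every untreated library in all 16 genes called higher, where 21.9% of all genes did so, and below in all 18 called lower, where 8.93% did. With PRP lysate this held for 5 of the 16 (10.1% of all genes) and 4 of the 18 (8.41%), and with ACS for 5 of the 16 (16.3%) and 9 of the 18 (10%). CEBPD had 42.0 ± 10.4 CPM (mean ± SD, 3 libraries) in MSC-CM, 6.67 ± 1.503 CPM with PRP lysate and 8.16 ± 0.208 CPM with ACS, against 47.4 ± 4.19 CPM with IL-1ß alone and 9.14 ± 1.04 CPM untreated. TRIB3 was at 69.1 ± 7.35 CPM, 22.8 ± 5.35 CPM and 17.3 ± 1.93 CPM, against 68.5 ± 9.08 CPM and 16.5 ± 2.44 CPM. In both genes MSC-CM lay with IL-1ß alone, while PRP lysate and ACS lay near the untreated level. PSAT1 was at 81.6 ± 13.1 CPM with MSC-CM, 24.1 ± 9.68 CPM with PRP lysate and 14.9 ± 2.46 CPM with ACS. CXCL10 had another order, with 28.7 ± 2.42 CPM, 39.3 ± 14.9 CPM and 32.0 ± 1.90 CPM, all below the untreated level of 146 ± 41.4 CPM. TIMP3 was at 28.1 ± 4.07 CPM with MSC-CM, and its means of 95.2 ± 24.2 CPM with PRP lysate and 165 ± 6.34 CPM with ACS were above the untreated level of 71.4 ± 17.5 CPM.

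**Figure D5:**
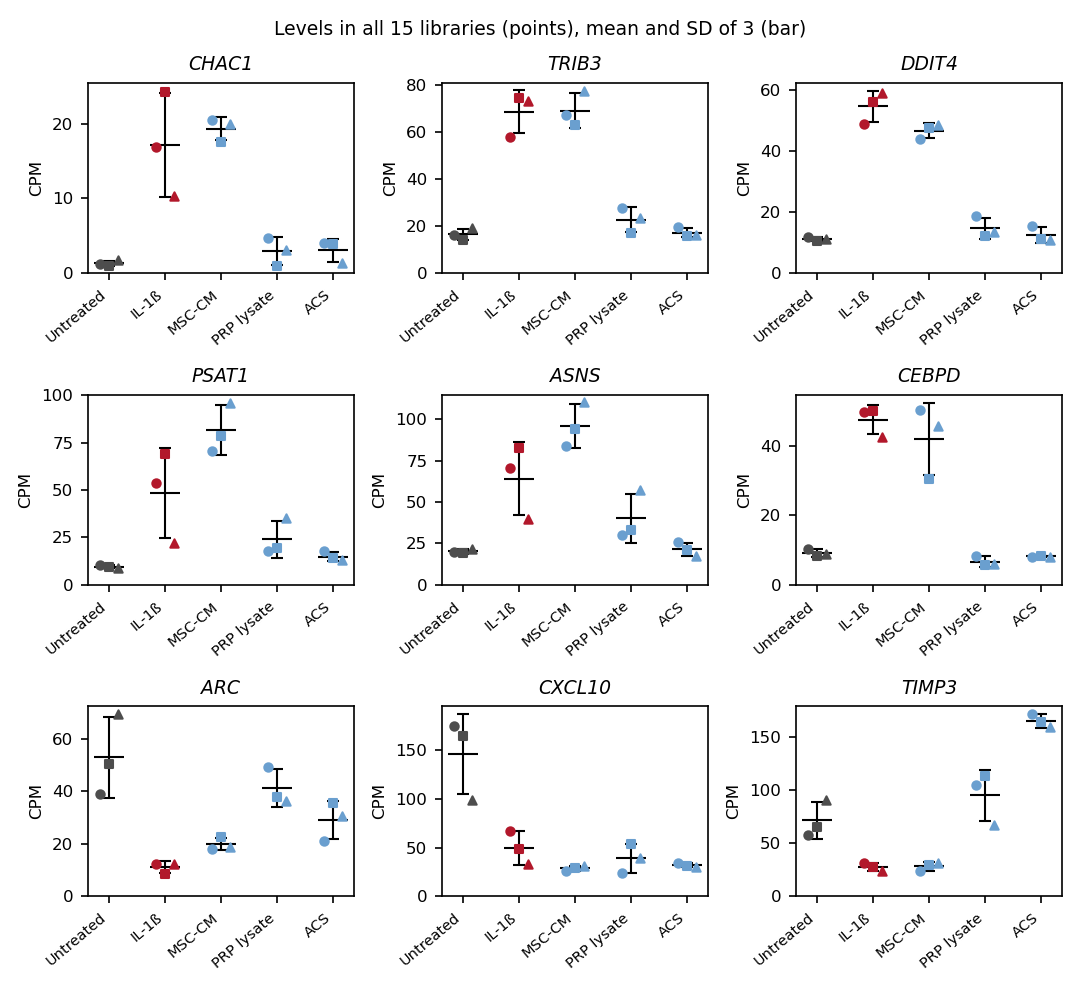
CPM of 9 genes called with all 15 libraries, in each library (points, with the symbol giving the replicate) and as mean and SD of 3 libraries (bars), for untreated macrophages, IL-1ß alone and IL-1ß with MSC-CM, PRP lysate or ACS. MSC-CM sits with IL-1ß alone for TRIB3, DDIT4 and CEBPD, and all 4 groups with IL-1ß sit below untreated macrophages for CXCL10.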

How the data were processed

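The deposited values are CPM. Per the labels and the study's methods, the authors removed adapters and low-quality bases (Phred under 20), mapped the reads to the horse genome EquCab3.0 by STAR (version 2.7.3), obtained HTseq gene counts and scaled these to CPM, all within Partek Flow. Of all deposited CPM values 99.5% lay within 0.05 read of a whole number of reads, and these recovered reads (28920909 to 39155295 per library of the comparison) served DESeq2 and edgeR. 0 columns were left unmatched. Genes averaging 1 CPM or more across the 15 libraries entered a limma-trend fit of log2(CPM + 1) with 5 groups and no pairing, and p-values were adjusted by Benjamini-Hochberg over all genes compared, once with all libraries and once without IL-1ß replicate 3. A gene was called where its adjusted p did not exceed 0.05 and its change reached 2-fold. The pseudocount of 1 understates the change of low genes. Errors are SD, or SE where named.

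The genes named are those called in either fit, those that the Results text of the study names for this contrast, usual IL-1ß readouts, on each list the members called and the 2 highest and 2 lowest with a mean of at least 10 CPM, and the genes in which IL-1ß replicate 3 deviated most. 1 gene that this rule selects is not reported here. Other list members were named after their values were seen. The members and the 23 gene lists and 11 marker lists were chosen with earlier results of these data known. The fits were first tested on simulated data. A promoter search was planned and not run. Other settings tried were RLE and TMM scaling, a pseudocount of 0.1, no fold threshold, no expression filter or one of 10 reads in every library, DESeq2, edgeR, array weights, the libraries of the comparison alone, a replicate block, leaving out each library, and, added after the data were seen, removal of the gene span trend. R 4.3.3, limma 3.58.1, edgeR 4.0.16 and DESeq2 1.42.0 were used.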

Additional observations from a re-analysis of the deposited data

How the results depend on the processing

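All 34 genes called with 15 libraries kept their direction under each of 16 alternatives, and of 543 values for these genes 271 also kept the call. The count of calls depended on the tool. DESeq2 called 167 genes (77 higher, 90 lower) with all libraries and 153 (57 and 96) without IL-1ß replicate 3, where edgeR called 27 and 35 (13 higher and 22 lower). Array weights gave 220 genes (127 and 93), but the weights did not converge. The 6 libraries alone gave 0 genes in either direction in limma, with 821 at an unadjusted p of 0.05 and 165 of those past 2-fold, and 24 genes (19 higher, 5 lower) without replicate 3. Leaving out each library gave 5 to 35 genes, 4 to 21 higher and 1 to 14 lower. Leaving out PRP lysate replicate 1 and MSC-CM replicate 1 besides IL-1ß replicate 3 gave 109 (69 and 40). With RLE size factors the split without replicate 3 was 20 higher and 20 lower. Genes of the process and marker lists called numbered 22 with all libraries, 44 by DESeq2, 56 with array weights, 0 with the 6 libraries alone and 5 to 17 when each library was left out. With the gene span trend removed, chosen after the data were seen, 31 genes were called, 20 of them among the 34. Deviations of same-numbered IL-1ß and untreated libraries correlated at -0.47, 0.54 and 0.41, and neither IL-1ß replicate 1 nor 3 correlated best with its own number. Library deviations also followed gene span, at correlations of 0.28, -0.13 and -0.40 in IL-1ß replicates 1, 2 and 3. In untreated replicates 1, 2 and 3 these were -0.16, 0.26 and -0.23. The check therefore cannot decide whether the replicate numbers pair the libraries. A fit with the replicate block on the 12 numbered libraries called 6 genes (4 higher, 2 lower), 5 of them members of the lists. At 1 CPM a gene had about 29 to 39 reads, and genes under 1 CPM on average were not tested.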

Other observations

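The lists not described above held few calls with IL-1ß in limma, which called 0.138% of all genes higher and 0.155% lower. With all libraries it called 2 of the 22 glucocorticoid and mTOR feedback genes higher, CEBPD and DDIT4, and 2 lower, SGK1 and TXNIP. Without replicate 3 it called CEBPD and DDIT4 alone. Interferon stimulated genes had 30 of 59 higher (median 0.0045) and 37 of 59 without IL-1ß replicate 3 (median 0.13), and CXCL10 was the member called with all libraries. The double-stranded RNA sensor gene DHX58 was at 44.2, 37.1 and 49.1 CPM with IL-1ß and 27.6, 21.2 and 24.0 CPM without, and IDO1, which degrades tryptophan, at 105, 117 and 126 CPM against 69.0, 64.2 and 73.5 CPM. The groups did not overlap in either gene, and neither passed in limma with Benjamini-Hochberg adjustment (adjusted p = 0.147 and 0.126). IFIT2 was at 110.02, 59.5 and 13.9 CPM against 131, 150.4 and 94.1 CPM, lowest in replicate 3.

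Markers of alternative activation gave no call in limma with all libraries or without replicate 3, DESeq2 or edgeR, with 2 of 20 higher and 2 lower at an unadjusted p of 0.05 in limma, where 750 and 756 of the 11628 genes were. CD163, the hemoglobin scavenger receptor of resolving macrophages, was at 685, 638 and 365 CPM with IL-1ß and 302, 281 and 147 CPM in untreated macrophages, and the scavenger receptor STAB1 at 64.4, 66.5 and 44.7 CPM against 21.4, 24.9 and 12.7 CPM. All IL-1ß libraries were above all untreated ones in both genes. Their log2 fold changes were 1.22 ± 0.389 (adjusted p = 0.213) and 1.56 ± 0.531 (adjusted p = 0.24) in limma with Benjamini-Hochberg adjustment, and both passed in the 12-library fit. The adhesion molecule gene PECAM1 had 500.4, 455 and 244 CPM against 274, 280.2 and 151 CPM, with overlap. The chemokine genes CCL17 and CCL22 were at 57.5, 93.9 and 164 CPM and 83.2, 114 and 55.5 CPM with IL-1ß, and at 152, 113 and 341 CPM and 103, 132 and 213 CPM without. The M2 list had 7 of 20 genes higher (median -0.13) and the M1 list 7 of 22 (median -0.25), against 43.1% of all genes. Without replicate 3 these were 9 of 20 (median -0.14) and 11 of 22 (median -0.06), against 59.0%. On the M1 list limma called GPR84 higher and CXCL10 lower with all libraries, where it called 0.138% and 0.155% of all genes. Without replicate 3 it called GPR84 alone.

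The median log2 fold changes of the other lists, with all libraries and without replicate 3, were -0.03 and -0.05 for antigen presentation, -0.01 and 0.15 for lipid synthesis, 0.02 and 0.08 for glycolysis and hypoxia, and -0.09 and -0.06 for the NRF2 genes. Chemokines had -0.16 and -0.44, cytokines and growth factors -0.23 and 0.01, and glucocorticoid and mTOR feedback genes -0.31 and -0.08. The signs for antigen presentation, lipid synthesis and cytokines changed with the scaling or with replicate 3. For the 5 C/EBP genes the medians were -0.04 and 0.18. SREBF1, a master regulator of lipid synthesis, was at 111, 130.4 and 126 CPM with IL-1ß and 66.7, 56.3 and 74.7 CPM without, a separation that did not pass (limma, Benjamini-Hochberg adjusted p = 0.296).

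Of the other marker lists, NK and cytotoxic cell genes summed to 326 to 613 CPM with IL-1ß and 268 to 420 CPM without, B cell genes, mostly JCHAIN (-0.09 on the log2 scale), to 199 to 267 and 196 to 224 CPM, and neutrophil genes to 311 to 393 and 325 to 389 CPM. Erythroid genes summed to 3.97 to 6.64 and 2.35 to 2.89 CPM, and mast cell and basophil genes to 17.9 to 27.1 and 10.4 to 20.05 CPM.

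The members with the lowest and highest log2 fold changes among those of at least 10 CPM, all without a call in limma with all libraries, are given here for the lists whose extremes were not named above. Antigen presentation ran from ERAP2 (-0.83) and CD80 (-0.81) to PSMB8 (0.41) and RFXANK (0.46). In lipid synthesis FADS1 (-0.99) and CYP51A1 (-0.73) were lowest, and ACSL3 (0.34) stood beside SREBF1. CSF1 (-1.20), the growth factor of macrophages, and TNFSF14 (-1.01) were the lowest cytokines, and no IL-1ß library reached an untreated one in either. DESeq2 called CSF1 (-1.07, adjusted p = 0.0275). ERRFI1 (-1.24) was lowest among the glucocorticoid and mTOR genes. For glycolysis and hypoxia the range was LOX (-0.93) and EGLN3 (-0.85) to ALDOC (0.78) and VEGFA. NRF2 genes ran from CYBB (-0.67), of the phagocyte oxidase, to PRDX4 (0.62) and SOD2 (0.89), the mitochondrial superoxide dismutase. IL-1 signaling genes began at IRAK2 (-0.70) and TAB3 (-0.67) and ended at SIGIRR (0.84) and IL1B, and JUND (0.38) was the second highest immediate early gene. Respiratory chain genes lay between NDUFS1 (-0.38) and SDHB (-0.32) and NDUFS5 (0.38) and ATP5MC2 (0.42), and ribosomal protein genes between RPL15 (0.22) and RPS27A (0.26) and RPL28 (0.69) and RPS20.

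Among the marker genes, MSR1 (-0.54) and CTSS (-0.47) were the lowest of macrophages and AIF1 (0.51) the highest after CD163. NK and cytotoxic genes ran from TBX21 (-0.11) and KLRB1 (0.18) to PRF1 (0.27) and NKG7 (0.55), and dendritic cell genes from CADM1 (-0.31) and CCR7 (0.04) to FSCN1 (0.20) and BATF3 (0.36). The B cell genes POU2AF1, CD22 and CD79A were at 0.48, 0.66 and 1.06, and TEK, FCER1A and CSF3R at -0.93, 0.67 and -0.03. None of these was called in limma with all libraries.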
